A study of Mus musculus with 4 samples.

Results

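The miR-29 family consists of short RNAs cut from 4 hairpins of the mouse genome, and its 7 mature arms were followed here in neurons cultured from the cortex of WT and TgAD embryos. The arms were chosen by name, as every 5p and 3p product of miR-29a, miR-29b and miR-29c, and all 7 were among the 1966 mature miRNA listed in the count tables. There were 2 libraries per genotype. TgAD neurons came from a transgenic mouse strain used as a model of Alzheimer's disease, with 2 transgenes. One encodes APP, part mouse and part human in sequence, with the Swedish mutations. Expression is set by the prion promoter of the mouse, which is active above all in brain neurons. WT neurons carried neither transgene. In both genotypes the cortex was taken at E16.5 (embryonic day) according to the sample labels, and the neurons were kept for 5 days in serum-free medium without any treatment. The methods of the study state that each mouse embryo was cultured on its own and genotyped afterwards, so the libraries stand for cultured embryonic neurons and not for the brain of an adult animal. The comparison of TgAD with WT addresses which miRNA change in neurons that produce more amyloid-β.

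A miRNA hairpin is trimmed in the nucleus by Drosha and in the cytoplasm by Dicer, and 1 strand of the resulting duplex is kept in an Argonaute protein as the guide, while the passenger strand is mostly lost. The guide finds its target mRNAs mainly through its seed, bases 2 to 8 counted from the 5′ end. In the miR-29 family the 3p arms are the usual guides. They are known for repressing BACE1, the protease that makes the first cut in amyloid-β production, as well as collagens, DNA methyltransferases and the BH3-only genes that start apoptosis, and for increasing as neurons mature.

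The mature sequences, taken from RefSeq on the mouse build GRCm38.p6, are printed 5′ to 3′ with the seed in capitals, because the shared seed and the few bases that separate the arms bear on what each count stands for. All 7 names were found there, and the prefix mmu- marks mouse.
mmu-miR-29a-3p: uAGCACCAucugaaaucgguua
mmu-miR-29c-3p: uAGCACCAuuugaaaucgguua
mmu-miR-29b-3p: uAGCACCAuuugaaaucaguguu
mmu-miR-29a-5p: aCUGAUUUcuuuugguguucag
mmu-miR-29c-5p: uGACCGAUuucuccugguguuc
mmu-miR-29b-1-5p: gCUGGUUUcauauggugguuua
mmu-miR-29b-2-5p: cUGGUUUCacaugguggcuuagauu

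The 3 guide arms shared the seed AGCACCA, and no other mature mouse miRNA in RefSeq carried it. The 4 passenger arms had 4 different seeds. Counted from 1 at the 5′ end, miR-29a-3p and miR-29c-3p differed by 1 substitution, C10U, which lies outside the seed. miR-29c-3p and miR-29b-3p were alike over their first 17 bases and differed by G18A, U21G and A22U. Because the reads were mapped without mismatch, a read of miR-29a-3p that covers base 10 without a sequencing error there cannot be counted as miR-29c-3p. The rate of such errors was not measured. The longest stretch of miR-29c-3p found in a hairpin at another locus was 17 bases, in Mir29b-2.

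The hairpins lie in 2 pairs. Mir29a and Mir29b-1 are on the minus strand of chromosome 6, from 31062660 to 31062747 and from 31063023 to 31063093 on GRCm38, with 275 bases between them. In GENCODE M21, Mir29b-1 touches the end of the single exon of the non-coding gene Gm27019, which runs from 31063092 to 31063495, while Mir29a overlaps no other gene. Mir29b-2 and Mir29c are on the plus strand of chromosome 1, from 195037040 to 195037120 and from 195037547 to 195037634, with 426 bases between them. Both fall in an exon of the non-coding gene A330023F24Rik that runs from 195033823 to 195037904, and in an exon of Cd46 on the opposite strand. The 3p arm of miR-29b is identical in Mir29b-1 and Mir29b-2, so that its reads cannot be placed at 1 locus. miR-29a-3p itself lies at chr6:31062673-31062694 and miR-29c-3p at chr1:195037600-195037621.

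The libraries held between 2070204 and 4811010 counted reads, and the most abundant miRNA took 15.8% and 16.7% of the reads in WT and 27.0% and 31.8% in TgAD neurons. Of the 4 neuronal markers, miR-124-3p had at most 7 reads and miR-9-5p had 0 in all 4 libraries, while miR-128-3p was higher in TgAD neurons (log2 fold change 1.49) and miR-138-5p was not called (-0.63, TgAD below WT without overlap). Zero counts were frequent among arms that overlap an arm annotated on the opposite strand, with 60 of 69 such names at 0 (87.0%) against 616 of 1606 (38.4%) of the others, and all 7 miR-29 arms were among the others. The summed level of the 4 neuronal markers, in CPM (reads per 1000000 reads after TMM scaling), was 19959 and 34266 in WT libraries. It was 85274 and 60374 in TgAD libraries, and nearly all of it was miR-128-3p. The summed markers of other cell types ranged from 743 to 939 in WT and from 881 to 1081 in TgAD neurons for 5 myeloid miRNA, from 718 to 901 and from 756 to 827 for 4 vessel miRNA, and from 8.93 to 13.2 and from 7.21 to 7.65 for 4 epithelial miRNA. Those of 2 astroglial miRNA, miR-21a-5p and miR-22-3p, ranged from 18185 to 23355 in WT and from 14394 to 15971 in TgAD neurons. Nearly all of this sum was miR-21a-5p, with genotype means of 19859 (WT) and 14421 (TgAD), against 911 and 762 for miR-22-3p. Neither was called, at log2 fold changes of -0.46 and -0.26 (adjusted p = 0.203 and 0.459 from edgeR). Whether these 2 stand for astroglia in the cultures was not tested. The summed markers of 3 blood miRNA ranged from 1310 to 1331 in WT and from 646 to 957 in TgAD libraries. All 3 oligodendrocyte miRNA were at 0, as were 2 of the vessel, 1 of the myeloid and 1 of the blood miRNA. Whether these markers lie opposite another annotated arm was not examined, so a count of 0 is not read as absence of a cell type. The part of the shifts in the summed markers in the miR-29 results was not tested.

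The names of the libraries were not the same in both deposited data sets. A second table held normalized values, from which whole reads were recovered for 100% of the values within a tolerance of 0.01 reads. Its column named WT_1 held the reads of the library labelled TgAD 1 for 100% of the miRNA in it, its column WT_2 those of WT 1, and its column TR_1 those of TgAD 2. Its column TR_2 was equal to none of the count tables, with at most 4.45% of the values the same, and no column held WT 2. In the count tables, the Pearson correlation of log2 reads over the miRNA of that table was 0.980 between the WT libraries and 0.981 between the TgAD libraries, and from 0.957 to 0.965 across genotypes, as a description over miRNA that share depth and composition. TR_2 correlated at 0.966 and 0.969 with the TgAD libraries and at 0.940 and 0.937 with the WT libraries. The results below follow the labels of the count tables, and those of the tested arms, the arm ratios and the ratio of the guide arms are also given under the column names of the other table and without TgAD 1. The fit under those column names leaves out WT 2 and includes TR_2, so it is not a change of names alone. The seed shares, the nearest profiles and the lists of other miRNA are given under the count-table labels alone.

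The level of 5 of the 7 arms was high enough to test. By mean CPM over the 4 libraries, the most abundant was miR-29a-3p, followed by miR-29c-5p, and then by miR-29c-3p at rank 321 of the 1966 listed miRNA, miR-29b-2-5p at rank 387 and miR-29a-5p at rank 400. The last 2 differed by less than the SD of either in WT, where their libraries overlapped. These are reads per arm of 22 to 25 bases, and the efficiency with which each arm enters a library was not measured. TgAD and WT were compared by edgeR's quasi-likelihood test over the 496 miRNA that passed the filter on low counts, with Benjamini-Hochberg adjustment over all of them. An arm was called at the wide cutoffs of the study, with the log2 fold change beyond 0.6 in either direction and the adjusted p below 0.1. At these cutoffs 3 of the 5 tested arms were lower in TgAD neurons (miR-29c-3p, miR-29a-5p and miR-29b-2-5p) and 0 were higher, where 33.1% of all tested miRNA were called, 17.3% lower and 15.7% higher. A negative log2 fold change was found for 4 of the 5 arms and for 47.6% of all tested miRNA. In bulk cultures, fewer cells of a type and less RNA per cell cannot be told apart. With 2 libraries per genotype an exact permutation test of a single arm cannot go below 0.333, so each call rests on the spread that edgeR shares across miRNA.

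**Figure D1:**
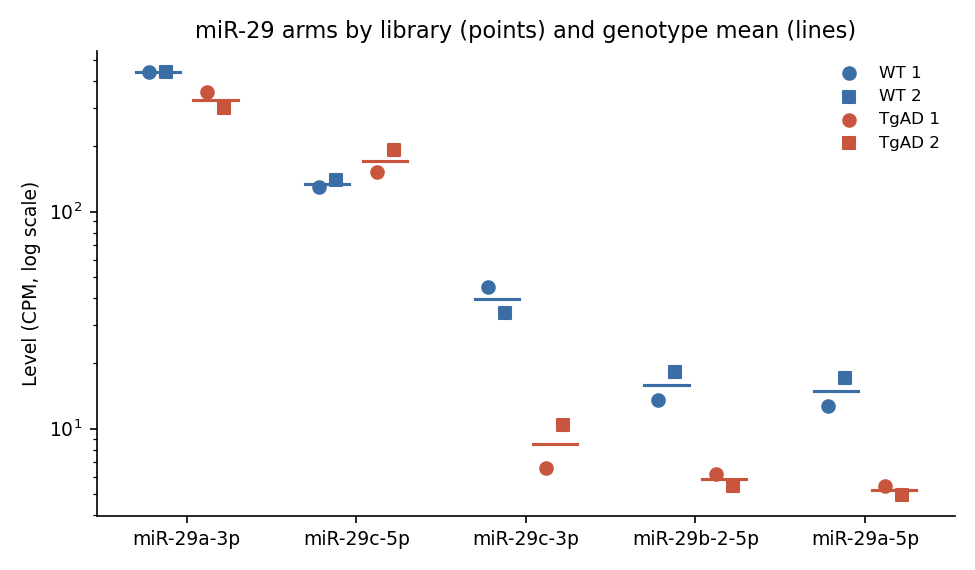
Level of the 5 tested miR-29 arms in CPM on a log axis, with 1 point per library (circles, replicate 1; squares, replicate 2) and a line at the mean of each genotype. The TgAD points lie below both WT points for miR-29a-3p, miR-29c-3p, miR-29b-2-5p and miR-29a-5p, and above them for miR-29c-5p. Of all tested miRNA, 32.5% lie below and 30.6% above in the same way.

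miR-29c-3p, a guide arm, fell the most. WT 1 and WT 2 contained 106 and 99 reads of mmu-miR-29c-3p, and TgAD 1 and TgAD 2 contained 18 and 42, which came to 45.1 and 34.0 CPM against 6.56 and 10.4 CPM. Both TgAD libraries were far below both WT libraries. The mean level was 39.6 ± 7.86 CPM for WT and 8.50 ± 2.75 CPM for TgAD (SD, n = 2 per genotype). The fold decrease fitted by edgeR was 4.55, or -2.19 on the log2 scale, with a standard error of 0.344 and an adjusted p of 0.0104, rank 8 from the lowest of the 496. In edgeR it missed the stringent cutoffs of the study by its p alone. These ask for 1 in size on the log2 scale and 0.01 for the adjusted p, and the study applied them with DESeq2. At those cutoffs 0 of the miR-29 arms were called by edgeR, against 4.44% of all tested miRNA (3.02% lower). The lowest adjusted p of any miRNA in edgeR was 0.00834. With DESeq2 on the same counts miR-29c-3p passed, as the only miR-29 arm, at -2.22 (adjusted p = 9.37e-05 from DESeq2). At an unadjusted p under 0.05, 183 of all tested miRNA passed in edgeR. Without TgAD 1 the log2 fold change of miR-29c-3p was -2.01 (adjusted p = 0.0320 from edgeR), and under the column names of the normalized table it was -1.55 (adjusted p = 0.495).

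miR-29a-3p, the guide that differs from miR-29c-3p by 1 base, was not called. Reads of mmu-miR-29a-3p numbered 1030 in WT 1, 1280 in WT 2, 975 in TgAD 1 and 1202 in TgAD 2. In CPM these were 438 and 439.6 against 355 and 299, so the TgAD libraries lay below the WT libraries without overlap, as did those of 32.5% of all tested miRNA. edgeR gave a log2 fold change of -0.42, a standard error of 0.193 and an adjusted p of 0.165. The call depended on the setting, since the arm passed when library size was taken as the total count (-0.68, adjusted p = 0.0843 from edgeR) and without TgAD 1 (-0.65, adjusted p = 0.0872). Under the column names of the normalized table the log2 fold change was -0.69, with an adjusted p of 0.565 from edgeR.

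The composition of the reads that carry the family's seed differed between genotypes. miR-29c-3p made up 9.33% and 7.18% of them in the WT libraries (Wilson 95% intervals 7.77 to 11.2% and 5.93 to 8.66%) and 1.81% and 3.37% in the TgAD libraries (1.15 to 2.84% and 2.51 to 4.53%), and the intervals, which cover counting error only, did not overlap between genotypes. The log2 ratio of miR-29c-3p to miR-29a-3p reads needs no scaling between libraries, but it was not corrected for GC content. It was -3.48 in WT and -5.27 in TgAD neurons, a difference of -1.79 (two-sided exact permutation test over 2 and 2 libraries, p = 0.333, the smallest this design allows). Without TgAD 1 the difference was -1.34. Under the column names of the normalized table the means were -4.50 and -4.79 and the difference was only -0.29 (p = 1 in the same exact permutation test), with both TR columns between the 2 columns named WT. miR-29b-3p, which also carries the seed, added at most 1 read per library, and how its reads from 2 loci were counted is not given. The seed shares and the sum over the guide arms therefore describe counted reads only. Nearly all of those reads came from miR-29a-3p, so the sum followed it. This sum was 484 and 474 CPM in WT and 362 and 309.6 CPM in TgAD libraries. The TgAD mean was 0.702 of the WT mean, a description without a test, and it was 0.590 with total counts as library size.

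miR-29b-3p, the third guide, was almost absent from the counts, with 0 reads in both WT libraries and 1 read in each TgAD library. All of these are within the floor of 3 reads, so no fold change is given and a difference was not detectable in these counts. Its passenger arms had more reads than the guide in every library, 39 and 53 in WT and 18 and 23 in TgAD neurons for miR-29b-1-5p and miR-29b-2-5p together. Among the 53 listed miRNA that RefSeq places at 2 or more loci, 30 had 0 reads in all libraries (56.6%), against 646 of the 1622 at 1 locus (39.8%). The shares with fewer than 10 reads over the 4 libraries, the class that holds miR-29b-3p, were alike, at 64.2% and 63.5%. Of these 53, 34 stayed under 10 reads over the 4 libraries, and 29 of the 34 had another listed arm of the same hairpins. miR-29b-3p was 1 of 3 among the 29 for which another arm reached 10. Names without a RefSeq sequence were left out of these counts. How the authors counted reads with several placements is not given in the sources used here, and the part of this in the count of miR-29b-3p was not tested.

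Of the passenger arms, 2 were called and both were lower in TgAD neurons. For mmu-miR-29a-5p, the partner of miR-29a-3p, WT 1 and WT 2 gave 30 and 50 reads and TgAD 1 and TgAD 2 gave 15 and 20, or 12.8 and 17.2 CPM against 5.47 and 4.97 CPM. The genotypes did not overlap. The log2 fold change by edgeR was -1.53, with a standard error of 0.352 and an adjusted p of 0.0278. mmu-miR-29b-2-5p, from the chromosome 1 pair, was close to it in level, with counts of 32 and 53 in WT 1 and WT 2 and of 17 and 22 in TgAD 1 and TgAD 2, or 13.6 and 18.2 CPM against 6.20 and 5.47 CPM. It also fell without overlap, with a log2 fold change of -1.46, an edgeR standard error of 0.345 and an adjusted p of 0.0298. Both calls were lost without WT 2, where the log2 fold changes of -1.30 and -1.24 had adjusted p values from edgeR of 0.154 and 0.165. They were also lost under the column names of the normalized table, where the log2 fold changes of -0.92 and -1.14 had adjusted p values of 0.649 and 0.558. Without TgAD 1 both passed, with log2 fold changes of -1.69 and -1.64 and the same adjusted p of 0.0734 from edgeR.

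miR-29b-1-5p, the passenger arm of the chromosome 6 copy of miR-29b, was counted 7 times in WT 1, 0 times in WT 2 and 1 time in each TgAD library, and did not pass the filter. Its genotypes overlapped, and no fold change is given.

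miR-29c-5p, the passenger arm of miR-29c, was the only tested arm with a higher mean in TgAD neurons. The counts of mmu-miR-29c-5p were 304 in WT 1, 407 in WT 2, 416 in TgAD 1 and 771 in TgAD 2. In CPM these were 129.4 and 139.8 against 152 and 192, with both TgAD libraries above both WT libraries, as for 30.6% of all tested miRNA. With a log2 fold change of 0.35, a standard error of 0.219 and an adjusted p of 0.304, edgeR did not call it. It was 0.078 with total counts as library size, where the median over all tested miRNA moved from 0.032 to -0.23, and 0.41 without TgAD 1 (adjusted p = 0.234 from edgeR). Under the column names of the normalized table it was 0.78 with an adjusted p of 0.536.

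**Figure D2:**
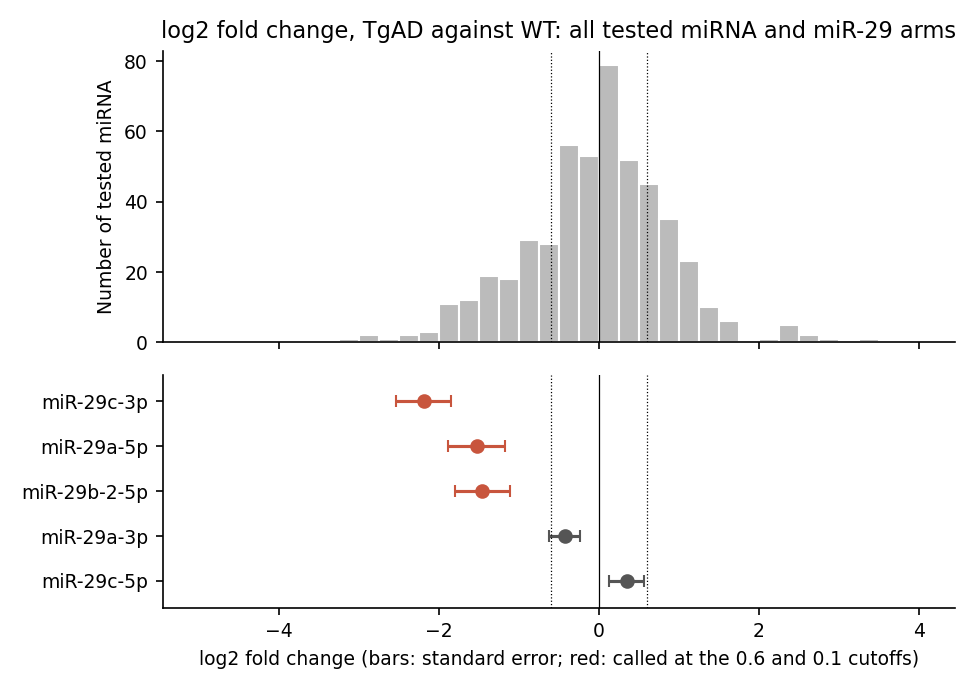
Top, number of tested miRNA by log2 fold change of TgAD against WT (1 miRNA below -4 lies outside the axis range used). Bottom, the 5 tested miR-29 arms with their standard errors, red where called; dotted lines mark 0.6 in each direction, and miR-29c-3p at -2.19, miR-29a-5p at -1.53 and miR-29b-2-5p at -1.46 lie beyond the lower line.

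Since both arms of a hairpin come from 1 precursor and were counted in the same library, their ratio does not depend on scaling between libraries. The arms differ in GC content, however, and the ratios were not corrected for it. With the GC correction described below, the edgeR log2 fold changes moved from -0.42 to 0.011 for miR-29a-3p and from -1.53 to -0.86 for miR-29a-5p. They moved from -2.19 to -1.51 for miR-29c-3p and from 0.35 to 0.12 for miR-29c-5p. In Mir29a the guide arm dominated, with 34.3 and 25.6 reads of miR-29a-3p per read of miR-29a-5p in WT and 65.0 and 60.1 in TgAD libraries. The share of the 3p arm was 97.2% and 96.2% in WT and 98.5% and 98.4% in TgAD neurons. The Wilson interval of WT 1 (96.0 to 98.0%) overlapped those of both TgAD libraries (97.5 to 99.1% and 97.5 to 98.9%), and that of WT 2 (95.1 to 97.1%) overlapped neither.

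In Mir29c the passenger arm dominated, with a higher ratio in both TgAD libraries than in both WT libraries. There were 2.87 and 4.11 reads of miR-29c-5p per read of miR-29c-3p in WT and 23.1 and 18.4 in TgAD libraries. The share of the 3p arm was 25.9% and 19.6% in WT (Wilson 95% intervals 21.9 to 30.3% and 16.3 to 23.2%) and 4.15% and 5.17% in TgAD neurons (2.64 to 6.46% and 3.84 to 6.91%), with a wide gap between the genotypes. The log2 ratio of 3p to 5p reads thus differed between genotypes in opposite directions, by 1.05 in Mir29a (4.87 ± 0.293 in WT and 5.93 ± 0.0718 in TgAD, SD, n = 2 each) and by -2.56 in Mir29c (-1.77 ± 0.367 and -4.34 ± 0.220). Each difference was larger than the spread between replicates, but the two-sided exact permutation test gave p = 0.333 for both, the smallest 2 against 2 libraries allow, and 0.333 after adjustment over the 2 hairpins. Under the column names of the normalized table the differences were 0.058 and -1.76, so that the one in Mir29a was nearly lost. Without TgAD 1 they were 1.003 and -2.41.

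**Figure D3:**
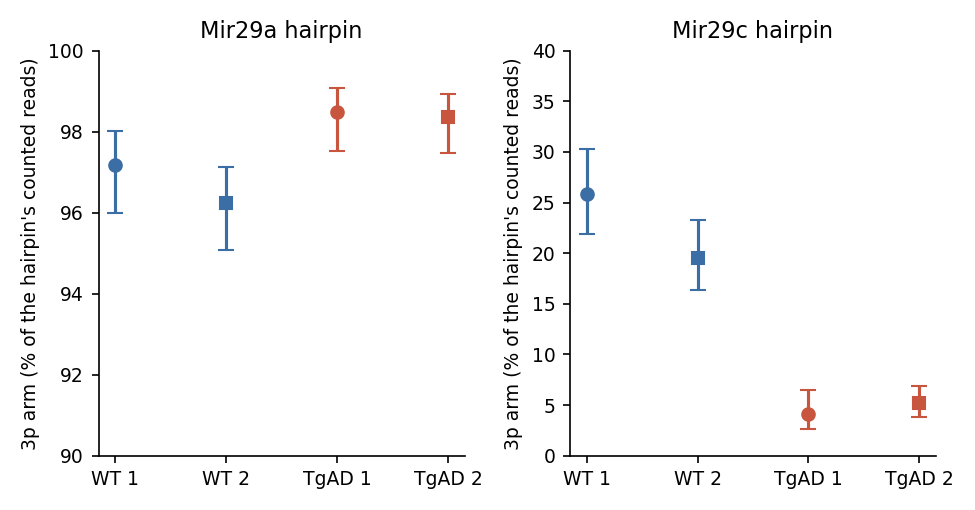
Share of the 3p arm among the counted reads of the Mir29a hairpin (left, on an axis that does not start at 0) and the Mir29c hairpin (right, from 0 to 40%) in each library, with Wilson 95% intervals that cover counting error only. The share is between 96.2% and 98.5% in Mir29a and in Mir29c it is 25.9% and 19.6% in WT and 4.15% and 5.17% in TgAD libraries.

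Both genomic pairs held called and uncalled arms, which by itself does not show that the arms of a pair differ. On chromosome 6, miR-29a-5p was lower in TgAD neurons and miR-29a-3p was not called, and on chromosome 1, miR-29c-3p and miR-29b-2-5p were lower and miR-29c-5p was not called. Whether arms of 1 pair differ was tested only for the 2 arms of each hairpin, with the exact permutation test given above.

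The base composition of the arms is given beside their fold changes. miR-29c-3p and miR-29a-5p had a GC content of 36.4%, miR-29a-3p of 40.9%, miR-29b-2-5p of 44.0% and miR-29c-5p of 50.0%, the highest of the family and the only tested arm with a positive log2 fold change. The order was not strict, since miR-29b-2-5p had a higher GC content than miR-29a-3p and a lower log2 fold change. Over the 441 tested miRNA with a RefSeq sequence, the median GC content was 42.1% for those lower in TgAD neurons, 52.2% for those higher and 50.0% for those not called, and Spearman's rho of log2 fold change with GC content was 0.42, as a description. A correction for GC content was fitted to these 441 miRNA in each library, and the other tested miRNA stayed uncorrected in the same fit. When corrected in this way, the log2 fold change of miR-29c-3p was -1.51 (adjusted p = 0.0161 from edgeR). That of miR-29b-2-5p was -1.23 (adjusted p = 0.0408 from edgeR), and both stayed past the cutoffs. That of miR-29a-5p was -0.86 and no longer passed (adjusted p = 0.152 from edgeR), that of miR-29a-3p was 0.011, and that of miR-29c-5p was 0.12.

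**Figure D4:**
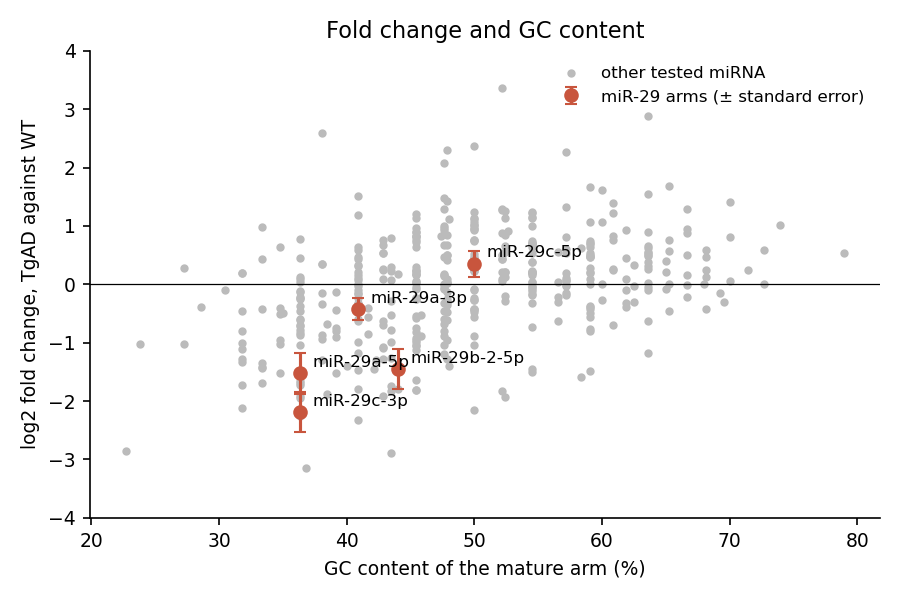
log2 fold change of TgAD against WT by GC content of the mature arm, for the tested miRNA with a RefSeq sequence (grey; 1 miRNA below -4 is not drawn) and the miR-29 arms (red, with standard errors). miR-29c-3p and miR-29a-5p, at 36.4% GC, lie lowest, and miR-29c-5p, at 50.0%, lies above 0.

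**Figure D5:**
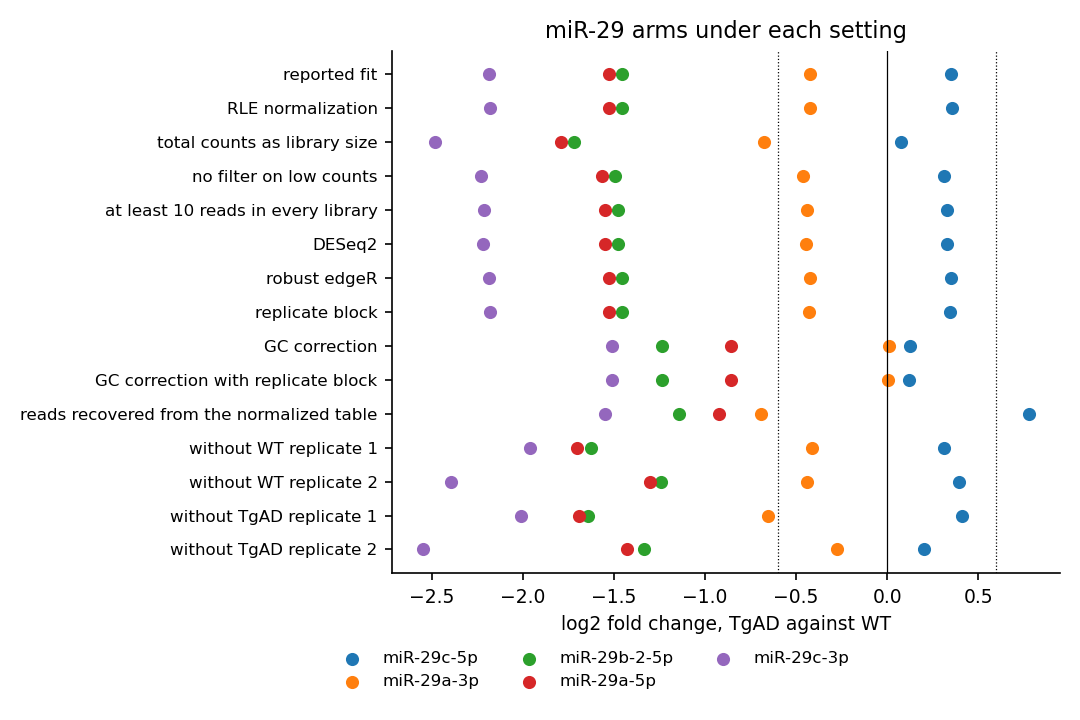
log2 fold change of the 5 tested miR-29 arms in the reported fit and under each alternative setting, 1 row per setting. miR-29c-3p lies between -2.55 and -1.51 in every row and miR-29c-5p between 0.078 and 0.78, while miR-29a-3p moves from -0.69 to 0.011.

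Other miRNA with profiles like those of the guide arms were found by the distance between log2 CPM values centred over the 4 libraries, a measure that rests on few points. Nearest to miR-29c-3p were miR-551b-3p, miR-3535 and miR-98-5p, at distances of 0.393, 0.521 and 0.560, with log2 fold changes of -1.94, -1.88 and -1.73. Nearest to miR-29a-3p were miR-7a-1-3p, miR-322-5p and miR-652-5p, at distances of 0.0914, 0.117 and 0.141, with log2 fold changes of -0.45, -0.48 and -0.31.

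BACE1 is also a target of other miRNA, and a list of 13 of them was counted. Of the 10 that were tested, 3 were lower in TgAD neurons, 3 were higher and 4 did not pass, beside 17.3% lower and 15.7% higher among all tested miRNA, and their median log2 fold change of 0.017 was close to that of all tested miRNA, 0.032. Those lower were miR-16-5p, miR-195a-5p and miR-384-5p, with log2 fold changes of -1.80, -1.28 and -0.95, and the largest of those higher was miR-328-3p at 0.84. Of 10 miRNA linked to neuronal differentiation and maturation, 7 were tested, with miR-137-3p lower (-1.53), miR-128-3p and miR-132-3p higher (1.49 and 0.95) and 4 not past the cutoffs, so that 3 of 7 were called beside 33.1% of all tested miRNA. Their median was 0.20. miR-29c-3p fell further, at -2.19, than any of the miRNA named from these lists, a comparison of fitted values without a test.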

How the data were processed

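Small RNA of cultured cortical neurons was sequenced in 2 WT and 2 TgAD libraries (50 bp reads). The authors mapped adapter-trimmed reads without mismatch to GRCm38 with Bowtie2 and counted mature miRNA of miRBase with HTSeq-count. They deposited raw counts, 1 table per library, and a normalized signal table (DESeq2 is named in the labels), used here only as an alternative. Counts were analyzed with edgeR 4.0.16 in R 4.3.3 (TMM normalization, filterByExpr, quasi-likelihood test, genotype as the only factor), and p values were adjusted over 496 miRNA. Total counts per library, 2070204 to 4811010, set the precision, and intervals and the floor of 3 reads cover counting error only, since reads have no molecular identifiers. The standard error is the size of the log2 fold change over the square root of F. Arm ratios used a pseudocount of 0.5 and no GC correction.

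Alternatives were RLE normalization, total counts as library size, other filters, DESeq2 1.42.0, the robust option, a replicate block, a correction for GC content (loess, span 0.75) and leaving out each library. When 1 library of a genotype was left, it was assumed to vary like the others. The procedure was tested on simulated data. The text names every miR-29 arm, the 3 nearest profiles of miR-29c-3p and of miR-29a-3p, and up to 4 called miRNA of each list. The members and lists were chosen with earlier results of these data known, and the ratio of miR-29c-3p to miR-29a-3p and the counts of names at several loci or opposite another arm were added after the data were seen. The second transgene of the TgAD strain is not reported here.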

Additional observations from a re-analysis of the deposited data

Results flagged for a closer look

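The reads recovered from the column TR_2 of the normalized table come from a library that matches none of the count tables and that the comparisons above use in 1 alternative. In it, miR-29c-5p had 385 reads, or 199.8 per 1000000 of the 1926952 recovered reads. This is above its 147 and 148 per 1000000 counted reads in the WT libraries and its 151 and 160.3 in the TgAD libraries. These values lack TMM scaling, with which the count libraries had 129.4 and 139.8 CPM in WT and 152 and 192 CPM in TgAD. The part of composition in this excess was not tested. For the other arms TR_2 held 255 reads of miR-29a-3p, 9 of miR-29c-3p, 6 of miR-29a-5p, 4 of miR-29b-2-5p and 1 of miR-29b-1-5p. Which culture it stands for was taken from its column name alone.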

How the results depend on the processing

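The 3 miR-29 arms called at 0.6 and 0.1 became 0 under the column names of the normalized table, a fit in which 0 of 480 miRNA passed either pair of cutoffs (54 at an unadjusted p under 0.05 in edgeR), and between 1 and 4 when each library was left out, with 1 without WT 2. Without any 1 library, at least 118 of all miRNA passed these cutoffs. At the stringent cutoffs, where edgeR called 22 of all miRNA and 0 miR-29 arms, the counts over all miRNA and over the arms were 0 and 0 with RLE (181 miRNA at an unadjusted p under 0.05), 86 and 3 with total counts, 97 and 3 with no filter, 50 and 2 with at least 10 reads in every library, 67 and 1 with DESeq2, 32 and 1 with the robust option, 28 and 0 with the GC correction, and 0 to 54 and 0 to 1 without 1 library (0 of all miRNA without TgAD 1). With total counts, 122 of the 165 miRNA past the wide cutoffs were lower, against 86 of 164.

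The replicate numbers mark no shared batch in the labels, and their deviations correlated at 0.22. With the replicate block the stringent counts were 102 and 3, and with the GC correction and the block 76 and 1. miR-29a-3p changed sign with the GC correction, to 0.011 (0.0050 with the block). Under the column names of the normalized table the share of the 3p arm differed by 0.205 percentage points in Mir29a, against 1.72, and by -11.3 in Mir29c, against -18.1. The log2 ratio of miR-29c-3p to miR-29a-3p, an alternative chosen after seeing the data, differed by -0.29 under those names, against -1.79, and by -2.24 to -1.34 without 1 library. The ratio of summed guide arms was 0.590 with total counts. The log2 fold change of miR-29c-3p kept its direction under all 14 alternatives and its call under 13. Without 1 library the difference in log2 arm ratio ranged from 0.85 to 1.26 in Mir29a and from -2.82 to -2.30 in Mir29c, in share from 1.25 to 2.18 and from -21.2 to -14.9 points, and the guide ratio from 0.647 to 0.757. The cause of these changes was not tested. With 2 and 9 reads in all, miR-29b-3p and miR-29b-1-5p allow no comparison in these counts.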
